A study of Drosophila melanogaster with 12 samples.

Results

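Transcripts of the everted prepupal wing at 6 h after puparium formation (6 h APF) were compared with those of the L3 wing disc, using 4 of the 12 libraries of a time course of *Drosophila melanogaster* wing development. The 2 libraries of 6 h APF and the 2 of L3 were selected by their titles, and every gene in the count tables entered, 15240 in all, while reads that fell on no single gene were left out. Animals of both stages had the same genotype, w1118/y,w, hs-FLP; + ; +, and received no treatment. Each library came from a pool of 40 dissected wings, and the pools of a stage were described as independent replicates. The p-values measure the spread between pools of wings, estimated over all timepoints of the series and not for the 6 h pools alone. The L3 libraries are titled 0hAPF, their stage label names wandering larvae, and the study places them at -10 h APF. They are called L3 here. The labels name the tissue only as wing and do not say how much of the hinge, the notum or the peripodial membrane was dissected with it.

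The steroid ecdysone starts metamorphosis with a pulse at the end of larval life. The titre then drops, and a further pulse comes at the end of the prepupal stage. In the fly, the nuclear receptor gene *ftz-f1* is transcribed during the trough between these pulses, and the receptors and transcription factors of the first pulse are known to be on before it. In the same hours the wing disc everts: the folded epithelium unfolds and elongates, the peripodial membrane opens and contracts, and the dorsal and ventral surfaces of the wing come together over a remodelled basement membrane. The everted epithelium then secretes the pupal cuticle, a layer of chitin and cuticle proteins beneath an envelope, while its cells pause in G2 and stop growing.

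Expression was measured as CPM, the count of a gene relative to all reads on genes of its library, scaled with TMM factors. Reads on genes numbered 5139047 and 3352491 in the 6 h libraries (replicates 1 and 2) and 6783321 and 2320457 in the L3 libraries. A count of 3, taken as the floor of detection, was worth 0.688 and 1.02 CPM at 6 h APF and 0.363 and 0.945 CPM at L3. Floors and the intervals given below cover counting error only. Wing identity genes were detected at both stages. The selector *vg*, which gives wing cells their identity, had 191 and 238 CPM at 6 h APF, against 318 and 181 CPM at L3. The pouch gene *nub* had 91.4 and 66.6 CPM at 6 h APF, against 112 and 123 CPM at L3. For *vg* and *nub* the difference did not pass the test, but *nub* was past it lower with library size alone (log2 change -1.16).

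Genes past the test are those with a fitted change of at least 2-fold and an adjusted p under 0.05 in edgeR's quasi-likelihood test. Of 8469 genes that passed the filter on low counts, 1532 were higher at 6 h APF (18.1%) and 1247 were lower (14.7%). Because the 6 h replicates differed strongly, a stricter class was used throughout. A gene was called clear when, in addition, all 4 ratios of a 6 h library to an L3 library were at least 2-fold in the same direction. There were 1133 clear higher genes (13.4%) and 780 clear lower genes (9.21%). For a clear gene, separation of the 6 h libraries from the L3 libraries follows from this rule and is no further result. Counts of list members past the test or clear are to be read beside these shares over all genes. In wing tissue, fewer cells of a type and less RNA per cell cannot be told apart from these values. The median change was 12.8-fold among the clear higher genes and 3.41-fold among the clear lower genes. At least 10-fold in all 4 ratios were 326 of the higher genes and 25 of the lower genes. The clear higher genes took 40.3 and 29.7% of reads on genes in the 6 h libraries, against 3 and 3.18% in the L3 libraries.

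**Figure D1:**
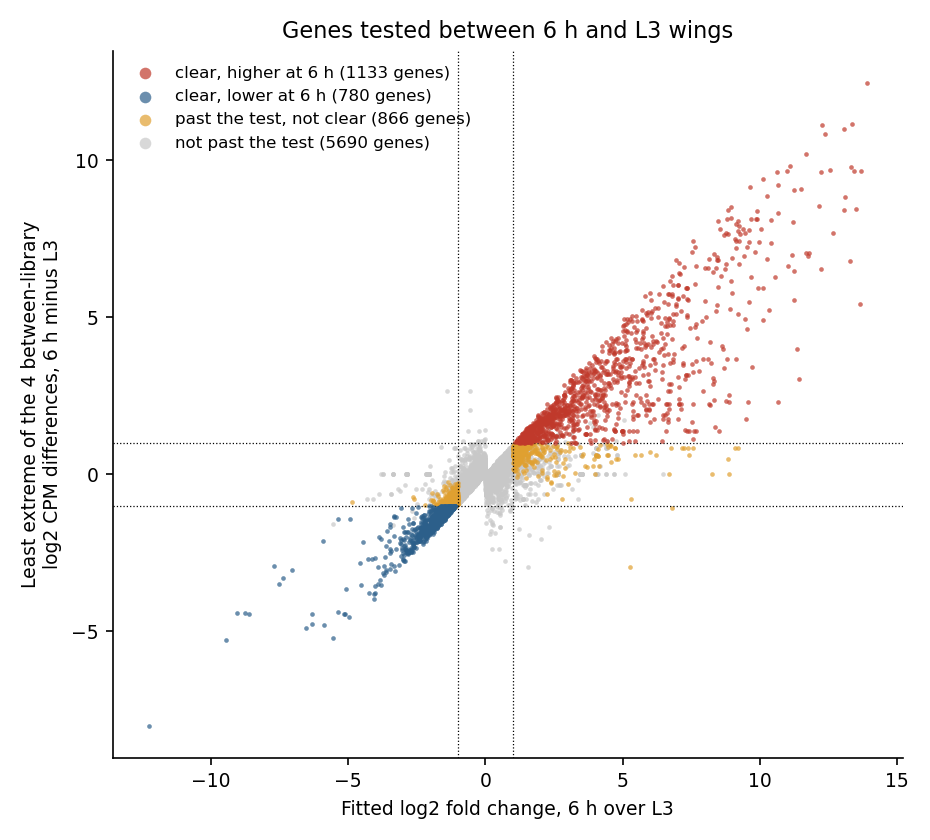
Fitted log2 change of each of the 8469 genes tested (6 h APF over L3, horizontal axis) against the least extreme of its 4 between-library log2 differences (vertical axis). Red and blue points are the 1133 higher and 780 lower genes that are clear in both replicates, orange points are the 399 higher and 467 lower genes past the test that are not clear, and grey points are genes not past the test.

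Scaling bears on all directions given here. With TMM factors the median log2 change over all tested genes was 0.01, and with library size alone it was -0.54. With library size alone 814 genes were clear higher and 1807 were clear lower, so changes are given relative to the bulk of the genes.

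The 6 h replicates differed at least 2-fold at 1257 of 8469 genes (14.8%), 655 higher in replicate 1 and 602 higher in replicate 2. The L3 replicates did so at 254 genes (3%). The Spearman correlation across genes, which are not independent replicates, was 0.949 between the 6 h libraries and 0.991 between the L3 libraries. Of the clear higher genes 399 differed at least 2-fold between the 6 h replicates, whereas 81 of the clear lower genes did. The difference followed gene groups. Of the 24 cuticle proteins outside the Cpr family that were tested, 19 were at least 2-fold higher in 6 h replicate 1 and 0 in replicate 2. Of the 22 *Osiris* genes tested, 4 were at least 2-fold higher in replicate 1 and 14 in replicate 2. Of the fat body genes the summed level was 240 CPM in replicate 1 and 890 CPM in replicate 2.

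Over the 6 stages of the series, 524 of the clear higher genes (46.2%) had their highest mean level at 6 h APF, 407 (35.9%) at 44 h APF and 151 (13.3%) at 36 h APF. Of the clear lower genes, 470 (60.3%) had their highest level at L3 and 175 (22.4%) at 18 h APF. By the rule of the call no clear higher gene could be highest at L3, and no clear lower gene at 6 h APF. The same shares over all genes tested were not tallied, so these numbers only describe the called genes.

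The ecdysone response changed in both directions. Of its 32 genes, all of them tested, 12 were past the test higher and 8 lower, and 6 and 6 were clear. The list's median log2 change was 0.46, against 0.01 over all genes, and with library size alone it was -0.11, with 6 genes higher and 10 lower. In a fit of the 4 libraries alone 31 of its genes were tested, with 8 past the test higher and 7 lower. The rises included the competence factor *ftz-f1* and genes that remove or export ecdysone, and the falls included the transcription factor genes *Blimp-1* and *Kr-h1*.

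*ftz-f1*, the nuclear receptor of the mid-prepupal trough, had 1603 and 1230 CPM at 6 h APF, against 41.2 and 19.2 CPM at L3, which was 45.8-fold higher (log2 change 5.52, SE 0.46, edgeR adjusted p = 2.43e-06). *Cyp18a1*, the cytochrome P450 that inactivates ecdysone, had 621 and 519 CPM at 6 h APF, against 3.03 and 2.52 CPM at L3. The rise was 198-fold (log2 change 7.63, SE 0.35, adjusted p = 3.58e-08), and the smallest of the 4 ratios was 150. *ImpL1*, found as an ecdysone-inducible transcript of imaginal discs, had 1070 and 5540 CPM at 6 h APF, against 4.12 and 4.41 CPM at L3 (log2 change 9.60, SE 0.76, adjusted p = 1.84e-06). Its 6 h replicates lay far apart, and the log2 change was 10.35 without 6 h replicate 1 and 7.98 without 6 h replicate 2. *ftz-f1*, *Cyp18a1* and *ImpL1* were all clear. *E23*, an ABC transporter that lowers the ecdysone response, was picked after its values were seen and had 208 and 85 CPM at 6 h APF, against 8.48 and 9.45 CPM at L3 (log2 change 4.05, adjusted p = 1.11e-05). The log2 change of *E23* was 3.26 without 6 h replicate 1.

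*Blimp-1*, the repressor that delays *ftz-f1*, was at the edge of detection in the prepupal wing, with 0.229 and 0.34 CPM at 6 h APF, against 20.6 and 27.4 CPM at L3. The L3 level was 87.7 times the 6 h level (95% counting interval 24.3 to 724). *Kr-h1*, a zinc finger gene best known as a target of juvenile hormone, had 0.917 and 4.08 CPM at 6 h APF, against 96.3 and 93.9 CPM at L3 (log2 change -5.38, SE 0.48, adjusted p = 4.93e-06). Its log2 change was -4.54 without 6 h replicate 1 and -6.66 without 6 h replicate 2. The orphan receptor *Hr39* had 32.8 and 17 CPM at 6 h APF, against 81.6 and 90.7 CPM at L3 (log2 change -1.77, adjusted p = 0.000465). *ImpE3*, another disc transcript induced by ecdysone, had 23.6 and 23.5 CPM at 6 h APF, against 134 and 162 CPM at L3 (log2 change -2.65, SE 0.24, adjusted p = 5.47e-06). All 4 genes were clear lower.

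The receptor genes did not reach 2-fold. *EcR* had 103 and 124 CPM at 6 h APF, against 93.3 and 67.7 CPM at L3 (adjusted p = 0.0922), and its partner *usp*, which overlaps *CG4313*, had 67.8 and 55.7 CPM at 6 h APF, against 44.5 and 35 CPM at L3 (log2 change 0.63). *br*, which encodes the Broad factors and overlaps *Mur2B* on the opposite strand, had 1321 and 1104 CPM at 6 h APF, against 2611 and 1917 CPM at L3 (log2 change -0.90, adjusted p = 0.0688), and was past the test lower with library size alone (log2 change -1.47). The early genes *Eip75B* and *Hr4* separated the replicates rather than the stages. *Eip75B* had 58.7 and 212 CPM at 6 h APF, against 220 and 165 CPM at L3, and without 6 h replicate 2 its log2 change was -1.72 and past the test. *Hr4*, which overlaps *CG4406*, had 61.2 and 197 CPM at 6 h APF, against 192 and 202 CPM at L3, and its log2 change was -1.68 and past the test without 6 h replicate 2. In both genes 6 h replicate 2 lay at the L3 level and 6 h replicate 1 below it.

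Other early genes were past the test without being clear. *Hr46* (DHR3), which activates *ftz-f1*, had 137 and 183 CPM at 6 h APF, against 48.3 and 82.8 CPM at L3 (log2 change 1.30, adjusted p = 0.00752), and was not past the test without L3 replicate 1 (0.95). *Eip74EF* had 151 and 89.4 CPM at 6 h APF, against 47.1 and 42.2 CPM at L3 (log2 change 1.43). It fell below 2-fold without 6 h replicate 1 (0.99) and with library size alone (0.85). *ImpE1* and *ImpE2* moved apart. *ImpE1* had 546 and 1733 CPM at 6 h APF, against 378 and 391 CPM at L3, and its log2 change of 1.57 was 0.51 without 6 h replicate 2. *ImpE2* had 557 and 1836 CPM at 6 h APF, against 2956 and 3632 CPM at L3, and its log2 change of -1.46 was -0.84 without 6 h replicate 1. Neither call was kept without the named library, although the 6 h libraries of both genes lay on one side of the L3 libraries.

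**Figure D2:**
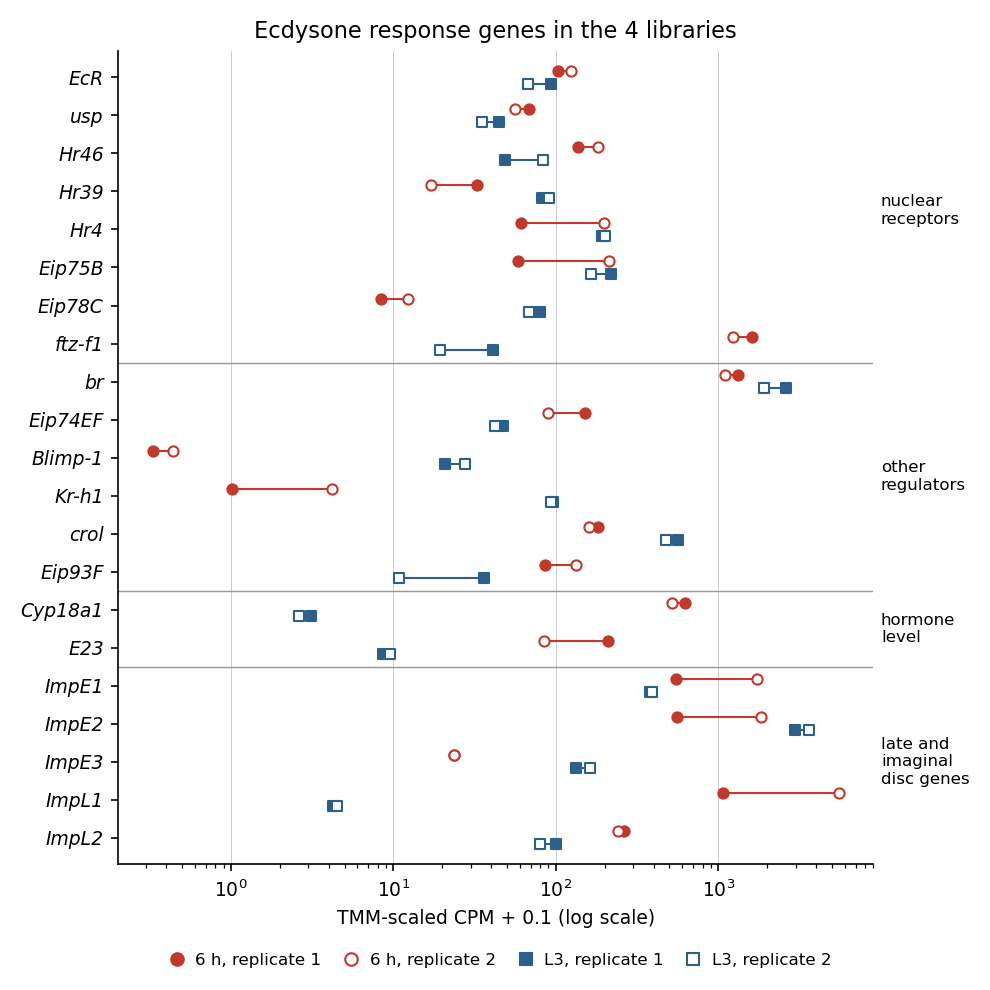
TMM-scaled CPM plus 0.1 (log axis) of 21 genes of the ecdysone response in the 4 libraries, with 6 h APF as circles and L3 as squares, filled for replicate 1 and open for replicate 2. *ftz-f1*, *Cyp18a1* and *ImpL1* stand far above their L3 levels, *Blimp-1* and *Kr-h1* far below them, and *Eip75B* and *Hr4* have one 6 h library at the L3 level.

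Genes tied to disc eversion and epithelial closure were examined next. The JNK pathway drives the opening and closure of the disc. Of 15 genes listed for JNK signalling or epithelial closure, 6 were past the test higher and 1 lower, with 5 and 1 clear. The median log2 change was 0.44, and -0.14 with library size alone. *puc*, the JNK phosphatase whose transcription reports pathway activity, had 81.6 and 128 CPM at 6 h APF, against 24.6 and 25.8 CPM at L3 (log2 change 2.05, SE 0.26, adjusted p = 7.54e-05). *egr*, the TNF ligand upstream of JNK, had 31.4 and 54.4 CPM at 6 h APF, against 8.48 and 9.13 CPM at L3 (log2 change 2.28, adjusted p = 0.000165). *Traf4*, the adaptor that carries the signal of this ligand and overlaps a noncoding RNA, had 74.5 and 42.8 CPM at 6 h APF, against 10.8 and 12 CPM at L3 (log2 change 2.38, adjusted p = 9.06e-05). The genes of this ligand, adaptor and feedback phosphatase were named because they were clear or landmarks, and pathway activity was not tested.

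*scaf*, a secreted protease homologue that antagonises JNK signalling at embryonic closure, had 1667 and 391 CPM at 6 h APF, against 38.2 and 41 CPM at L3. Its log2 change was 4.70 (SE 0.62, adjusted p = 9.06e-05) and 3.31 without 6 h replicate 1. Of the filamins, actin crosslinkers, *jbug* rose and *cher* fell. *jbug* had 717 and 348 CPM at 6 h APF, against 148 and 135 CPM at L3 (log2 change 1.91, adjusted p = 0.00142, and 1.30 without 6 h replicate 1). *cher* had 6.88 and 7.14 CPM at 6 h APF, against 122 and 105 CPM at L3, 16.2-fold lower (log2 change -4.02, SE 0.33, adjusted p = 2.63e-06). *cher* overlaps *cal1* on the opposite strand.

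Non-muscle myosin contracts the epithelium during eversion. The myosin heavy chain *zip* had 667 and 796 CPM at 6 h APF, against 1191 and 1015 CPM at L3 (log2 change -0.59, adjusted p = 0.0592), and its light chain *sqh* had 258 and 385 CPM at 6 h APF, against 221 and 202 CPM at L3 (log2 change 0.60, adjusted p = 0.0519). Neither passed the test, but *zip* was past it lower with library size alone (log2 change -1.17). Both *cv-c*, a gene required for tube morphogenesis, and *jar*, myosin VI, were clear. *cv-c* had 547 and 338 CPM at 6 h APF, against 96.9 and 74.7 CPM at L3 (log2 change 2.36, SE 0.26, adjusted p = 2.34e-05). *jar* had 79.5 and 45.2 CPM at 6 h APF, against 190 and 225 CPM at L3 (log2 change -1.72, adjusted p = 0.000864).

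Of 33 junction genes, all tested, 1 was past the test higher and 1 lower and none was clear, with a median log2 change of -0.02. These were the septate junction scaffold *vari*, with 350 and 299 CPM at 6 h APF, against 151 and 166 CPM at L3, and the apical determinant *crb*, with 77.2 and 63.6 CPM at 6 h APF, against 163 and 153 CPM at L3. *vari* was below 2-fold without 6 h replicate 1 (0.92) and without L3 replicate 1 (0.97). *vari* overlaps *Pomp*. With library size alone none of the 33 was past the test higher and 7 were lower.

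Of 36 matrix proteases and their inhibitors, 21 were tested. Of these 7 were past the test higher and 3 lower (18.1 and 14.7% over all genes). The clear higher genes were 2, *Spn88Ea* and *Spn42Da*, and the clear lower genes 3, *CG14869*, *Spn42Dc* and *Spn47C*. The median log2 change of 0.36 was -0.24 with library size alone. *Spn88Ea*, a serine protease inhibitor, had 1965 and 1291 CPM at 6 h APF, against 129 and 125 CPM at L3, 12.8-fold higher (log2 change 3.68, SE 0.26, adjusted p = 6.89e-07). It overlaps *CG42542*. *Mmp2*, a matrix metalloprotease that overlaps a noncoding gene, had 107 and 93.1 CPM at 6 h APF, against 33.3 and 49.5 CPM at L3 (log2 change 1.29, adjusted p = 0.00405) and was not past the test without L3 replicate 1 (1.02). *Mmp1*, the other metalloprotease, which overlaps *Pof*, had 53.2 and 58.8 CPM at 6 h APF, against 44.7 and 51.7 CPM at L3 (log2 change 0.22, adjusted p = 0.522).

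*Sb*, the transmembrane protease Stubble that is required for eversion, had 137 and 264 CPM at 6 h APF, against 137 and 123 CPM at L3 (adjusted p = 0.103), and was past the test only without 6 h replicate 1 (log2 change 1.02). It overlaps *CG5903*. *Timp*, the metalloprotease inhibitor, overlaps *Syn* and had 37.6 and 10.5 CPM at 6 h APF, against 6.42 and 6.3 CPM at L3. Its log2 change of 1.95 was 0.72 and not past the test without 6 h replicate 1. The ADAMTS gene *CG14869* was the largest fall of the list by its smallest ratio among genes with counts at both stages, with 2.29 and 7.48 CPM at 6 h APF, against 40.8 and 63.3 CPM at L3 (log2 change -3.49, adjusted p = 0.000173). Without L3 replicate 1, 4 genes of the list were past the test higher, and without 6 h replicate 2, 5 were lower.

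Of 26 basement membrane, integrin and integrin linker genes 25 were tested, 11 were past the test higher and 2 lower, and 7 and 2 were clear. The median log2 change was 0.82, with 5 genes higher and 4 lower under library size alone (median 0.24). Genes past the test higher numbered 7 without 6 h replicate 1. *wb*, a laminin alpha chain, had 468 and 661 CPM at 6 h APF, against 64.9 and 57 CPM at L3, 9.23-fold higher (log2 change 3.21, SE 0.27, adjusted p = 2.73e-06). *by*, the tensin that links integrins to actin, had 188 and 146 CPM at 6 h APF, against 17.2 and 11.3 CPM at L3, 11.4-fold higher (log2 change 3.51, SE 0.26, adjusted p = 1.19e-06). The integrin beta subunit *mys* had 403 and 353 CPM at 6 h APF, against 131 and 130 CPM at L3 (log2 change 1.53, SE 0.22, adjusted p = 0.000157). *wb*, *by* and *mys* were all clear, but *mys* was below 2-fold with library size alone (log2 change 0.95).

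The ventral alpha subunit *if* had 187 and 101 CPM at 6 h APF, against 61.7 and 60.5 CPM at L3 (log2 change 1.24), and was not past the test without 6 h replicate 1 (0.72). Further genes of the adhesion complex were picked after their values were seen. *scb*, an alpha subunit, had 147 and 105 CPM at 6 h APF, against 20.6 and 26.1 CPM at L3 (log2 change 2.45, adjusted p = 4.86e-06). The kinase scaffold *Ilk* had 108 and 124 CPM at 6 h APF, against 45.2 and 42.5 CPM at L3 (log2 change 1.40, adjusted p = 0.000137). Its partner *parvin*, which overlaps an antisense RNA, had 128 and 135 CPM at 6 h APF, against 35.6 and 34 CPM at L3 (log2 change 1.91, adjusted p = 7.53e-06). The clear falls of the list were *Ppn* and *mp*. *Ppn*, the matrix proteoglycan papilin, had 39.9 and 37.7 CPM at 6 h APF, against 272 and 334 CPM at L3 (log2 change -2.96, SE 0.32, adjusted p = 2.32e-05). *mp*, a collagen of the XV/XVIII type that overlaps an antisense RNA, had 15.6 and 10.9 CPM at 6 h APF, against 48.8 and 38.4 CPM at L3 (log2 change -1.71, adjusted p = 0.000344).

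**Figure D3:**
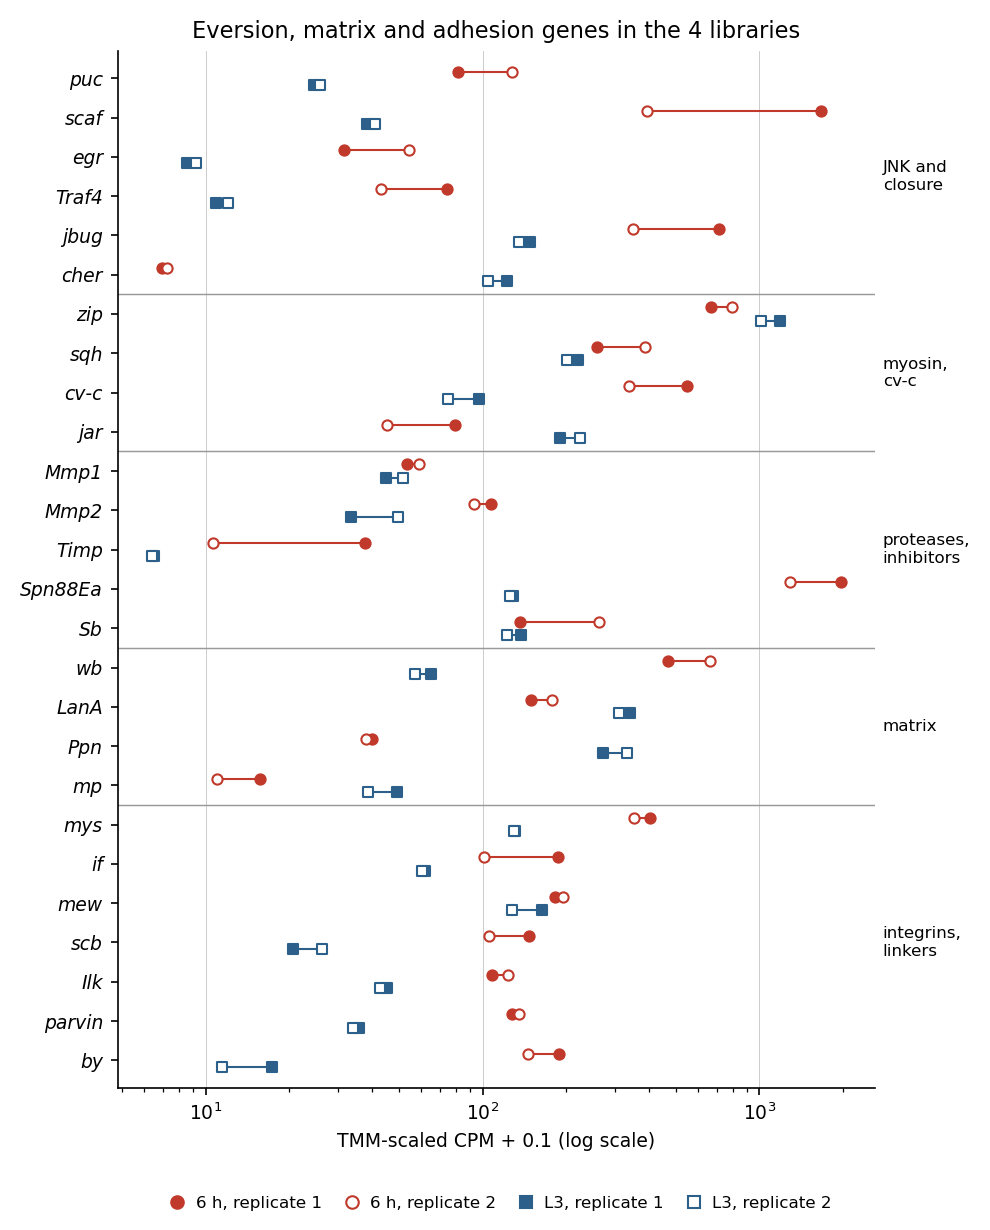
TMM-scaled CPM plus 0.1 (log axis) of 26 genes tied to eversion in the 4 libraries (circles for 6 h APF and squares for L3, filled for replicate 1 and open for replicate 2), grouped as JNK and closure, myosin and *cv-c*, proteases and inhibitors, matrix, and integrins and their linkers. 6 h APF is above L3 for *puc*, *cv-c*, *Spn88Ea*, *wb* and *by*, below it for *cher*, *jar* and *Ppn*, and close to it for *Mmp1*.

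Transcripts of the cuticle and the apical matrix rose in the prepupal wing. Among 70 Cpr genes, which encode cuticle proteins with the chitin-binding Rebers and Riddiford motif, 44 were tested, 24 were past the test higher and 3 lower, and 20 and 3 were clear. Their median log2 change was 3.15, or 2.65 when genes without counts at a stage took their bound. The filter admits a gene through its highest library, so the median of a list leaves out members low throughout. Without the filter on low counts the median was 2.30 over 63 Cpr genes. In a fit of the 4 libraries alone 31 Cpr genes were tested, 16 were past the test higher and 15 were clear higher. Of 53 other cuticle proteins (Tweedle, Lcp, Edg and related families) 24 were tested, 19 were past the test higher and none lower, and 14 were clear. Their median was 7.93, or 5.11 with bounds, and 4.74 over 39 genes without the filter. Among these 53 genes, 17 had no count in any of the 4 libraries. Without 6 h replicate 1, 9 of the other cuticle proteins were past the test higher, and 10 in a fit of the 4 libraries alone.

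*TwdlT*, a Tweedle cuticle protein gene, had 26790 and 6842 CPM at 6 h APF, against 5.33 and 4.73 CPM at L3 (log2 change 11.68, SE 0.80, adjusted p = 5.7e-07). The smallest of its 4 ratios was 1190, and its log2 change was 10.38 without 6 h replicate 1 and 12.35 without 6 h replicate 2. *Cpr51A* had 13480 and 2779 CPM at 6 h APF, against 9.45 and 7.56 CPM at L3 (log2 change 9.87, SE 0.78, adjusted p = 1.7e-06). Its log2 change was 8.31 without 6 h replicate 1 and 10.59 without 6 h replicate 2. *Lcp65Ad* had 15580 and 1504 CPM at 6 h APF, against 0.606 and 1.26 CPM at L3, a ratio of 10900 (95% counting interval 5720 to 23700). Its log2 change was 13.32, or 10.83 without 6 h replicate 1. In each of these genes 6 h replicate 1 was the higher library, and replicate 2 was still far above both L3 libraries.

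The *Edg* genes, known as ecdysone-dependent genes that encode proteins of the pupal cuticle, differed widely between the 6 h pools. *Edg78E* had 4980 and 151 CPM at 6 h APF, against 0.727 and 0.63 CPM at L3, a ratio of 3670 (95% counting interval 1860 to 8490). *Edg84A* had 2203 and 60.2 CPM at 6 h APF, against 0.121 and 0 CPM at L3, a ratio of 12900 (95% counting interval 2320 to 511000). *Edg91* had 236 and 4.08 CPM at 6 h APF, against 2.3 and 0.945 CPM at L3. *Edg78E* and *Edg84A* stayed past the test without 6 h replicate 1, at log2 changes of 7.70 and 9.05, whereas *Edg91* did not, at 1.16.

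The gap between the pools did not hold for all Cpr genes. Of the Cpr genes tested, 20 were at least 2-fold higher in 6 h replicate 1 and 5 in replicate 2. *Cpr35B*, picked after its values were seen as one with close replicates, had 98.1 and 107 CPM at 6 h APF, against 1.33 and 2.52 CPM at L3 (log2 change 5.87, SE 0.38, adjusted p = 3.54e-07). The Cpr genes that fell were *Cpr49Ac*, *Cpr64Aa* and *Cpr49Ag*. *Cpr49Ac* had 22.5 and 28.2 CPM at 6 h APF, against 339 and 471 CPM at L3, 16-fold lower (SE 0.32 on the log2 scale, adjusted p = 2.12e-06). *Cpr64Aa* had 0.688 and 0 CPM at 6 h APF, against 43.4 and 24.3 CPM at L3, and its L3 level was 82.3 times the 6 h level (95% counting interval 28.2 to 399). *Cpr49Ag* had 15.1 and 15.6 CPM at 6 h APF, against 35.7 and 40.6 CPM at L3, and was not past the test without L3 replicate 1 or without L3 replicate 2.

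*Osiris* genes encode a family of small transmembrane proteins of unknown biochemical function that are expressed where apical cuticle and its nanostructures form. Of 24 in the files 22 were tested, 18 were past the test higher and none lower, and 16 were clear. Their median log2 change was 6.94, or 5.79 with bounds, and 6.58 over 24 genes without the filter. *Osi7* had 18400 and 44550 CPM at 6 h APF, against 5.45 and 7.87 CPM at L3, and the smallest of its 4 ratios was 2220 (log2 change 12.24, SE 1.23, adjusted p = 1.21e-05). Its log2 change was 12.77 without 6 h replicate 1 and 11.49 without 6 h replicate 2. *Osi14*, picked after its values were seen, had 1394 and 1750 CPM at 6 h APF, against 3.39 and 2.84 CPM at L3 (log2 change 8.93, SE 0.34, adjusted p = 1.79e-08). *Osi20*, picked in the same way, had 116 and 56.4 CPM at 6 h APF and no count at L3, at least 91.3-fold higher against the floor per library. *Osi12* had 6.88 and 149 CPM at 6 h APF, against 3.39 and 3.15 CPM at L3, and its log2 change of 4.54 was 1.05 and not past the test without 6 h replicate 2. *Osi7* and *Osi12* were higher in 6 h replicate 2, the reverse of the cuticle proteins named above.

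Chitin synthesis and assembly rose with the cuticle proteins. Of 40 genes 29 were tested, 18 were past the test higher and 1 lower, all of them clear. The median log2 change of the 29 was 2.51, and it was 1.29 over 38 genes without the filter. The chitin synthase *kkv* had 1032 and 592 CPM at 6 h APF, against 143 and 142 CPM at L3 (log2 change 2.51, SE 0.32, adjusted p = 7.68e-05). *obst-A*, a chitin-binding protein that organises the cuticle matrix, had 8158 and 3571 CPM at 6 h APF, against 99.5 and 94.2 CPM at L3 (log2 change 5.92, SE 0.42, adjusted p = 6.58e-07), and 5.20 without 6 h replicate 1. *obst-E*, its relative that shapes the pupal case in the larva, had 542 and 52 CPM at 6 h APF, against 0.242 and 0 CPM at L3, a ratio of 1700 (95% counting interval 470 to 14000). The step that makes the chitin precursor and the enzymes that deacetylate the polymer were read from genes picked after their values were seen.

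*mmy*, which makes the activated sugar used for chitin, had 1004 and 322 CPM at 6 h APF, against 20.1 and 18.3 CPM at L3 (log2 change 5.10, adjusted p = 5.29e-06). The chitin deacetylase *serp* had 9038 and 2422 CPM at 6 h APF, against 108 and 105 CPM at L3 (log2 change 5.75, adjusted p = 6.05e-06). Its partner *verm* had 12930 and 3801 CPM at 6 h APF, against 252 and 245 CPM at L3 (log2 change 5.07, adjusted p = 1.93e-05). *mmy*, *serp* and *verm* were all higher in 6 h replicate 1, and without it their log2 changes were 4.06, 4.51 and 3.93. *Cht5*, a chitinase, was higher in replicate 2, with 287 and 871 CPM at 6 h APF, against 51.4 and 50.1 CPM at L3 (log2 change 3.51, adjusted p = 6.61e-05, and still past the test without 6 h replicate 2). The fall in the list was *Idgf4*, a chitinase-like secreted factor, with 4.81 and 3.4 CPM at 6 h APF, against 195 and 204 CPM at L3, 47.3-fold lower (log2 change -5.56, SE 0.37, adjusted p = 4.66e-07).

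Zona pellucida domain proteins attach the apical membrane to the cuticle. Of 13 genes, all tested, 8 were past the test higher and 1 lower, and 6 and 1 were clear, with a median log2 change of 2.48, or 2.09 with bounds. In a fit of the 4 libraries alone 5 were past the test higher. *dyl* had 1222 and 2668 CPM at 6 h APF, against 1.09 and 0.63 CPM at L3, 2005-fold higher (log2 change 10.97, SE 0.73, adjusted p = 4.49e-07). *dy* had 622 and 2127 CPM at 6 h APF, against 11.8 and 6.3 CPM at L3 (log2 change 7.19, SE 0.62, adjusted p = 3.29e-06). *neo*, which shapes embryonic denticles, had 5.27 and 10.9 CPM at 6 h APF, against 101 and 107 CPM at L3 (log2 change -3.72, adjusted p = 3.14e-05). *dp*, the giant matrix protein dumpy that anchors the wing to the cuticle, had 2216 and 1344 CPM at 6 h APF, against 291 and 157 CPM at L3 (log2 change 2.99, SE 0.38, adjusted p = 6.89e-05). *pio*, its partner in anchorage, had 328 and 76.1 CPM at 6 h APF, against 302 and 355 CPM at L3 (adjusted p = 0.277), and was past the test lower without 6 h replicate 1 (log2 change -2.11). *dyl*, *dy* and *dp* were all clear higher.

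Tanning genes supply the quinones that harden cuticle. Of 25 genes 22 were tested, 11 were past the test higher and 2 lower, and 9 and 2 were clear, with a median log2 change of 1.51, or 1.29 with bounds. In the 4 libraries alone 7 tanning genes were past the test higher. *ple*, the tyrosine hydroxylase at the head of the pathway, had 144 and 327 CPM at 6 h APF, against 0.969 and 3.78 CPM at L3 (log2 change 6.93, SE 0.68, adjusted p = 9.45e-06). *yellow-h*, which overlaps an antisense RNA, had 81.6 and 50.6 CPM at 6 h APF, against 0.969 and 0.945 CPM at L3 (log2 change 6.07, SE 0.50, adjusted p = 2.32e-06). *laccase2*, the oxidase that crosslinks cuticle and a gene picked after its values were seen, had 650 and 590 CPM at 6 h APF, against 29 and 22.4 CPM at L3 (log2 change 4.58, SE 0.29, adjusted p = 3.3e-07). *Ddc*, dopa decarboxylase, overlaps *CG10561*, was likewise picked, and had 4.58 and 1.36 CPM at 6 h APF, against 1.7 and 1.89 CPM at L3 (adjusted p = 0.438). The clear falls were *Pu*, which makes the pterin cofactor of tyrosine hydroxylase, and *yellow-e3*. *Pu* had 0.688 and 0.34 CPM at 6 h APF, against 8.24 and 5.04 CPM at L3, a ratio of 12.1 (L3 over 6 h APF, 95% counting interval 4.74 to 44.5). *yellow-e3* had no count at 6 h APF, against 8.96 and 12 CPM at L3, at least 10.3-fold lower.

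**Figure D4:**
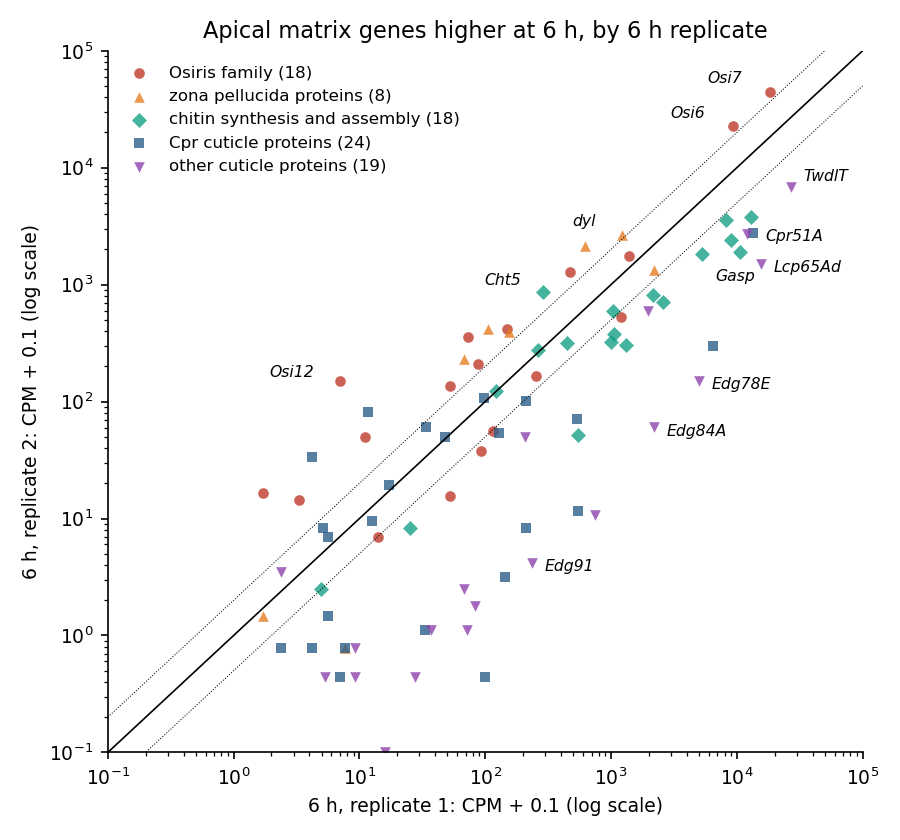
TMM-scaled CPM plus 0.1 in 6 h replicate 1 (horizontal) against 6 h replicate 2 (vertical), log axes, for the genes past the test higher at 6 h APF of 5 lists: 18 Osiris, 8 zona pellucida, 18 chitin, 24 Cpr and 19 other cuticle genes. The solid line marks equal levels and the dotted lines 2-fold differences; other cuticle proteins such as *TwdlT* lie on the side of replicate 1 and *Osi7* on the side of replicate 2.

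The secretory pathway rose in part. Of 56 genes 53 were tested, 15 were past the test higher and 2 lower, and 9 and 1 were clear, with a median log2 change of 0.56. This direction depended on scaling, with 4 genes higher and 7 lower under library size alone. The translocon component *Trp1* had 479 and 1282 CPM at 6 h APF, against 140 and 126 CPM at L3 (log2 change 2.72, SE 0.37, adjusted p = 0.000124, and 1.85 without 6 h replicate 2). The cargo receptor *loj* had 219 and 290 CPM at 6 h APF, against 66.6 and 63 CPM at L3 (log2 change 1.97, SE 0.24, adjusted p = 4.76e-05). *Sec61alpha*, the channel through which secreted proteins enter the endoplasmic reticulum and a gene picked after its values were seen, had 1126 and 1341 CPM at 6 h APF, against 498 and 511 CPM at L3 (log2 change 1.29, adjusted p = 0.000537). *Ost48*, a subunit of the glycosyltransferase that acts beside this channel, had 47.9 and 85.6 CPM at 6 h APF, against 203 and 199 CPM at L3 (log2 change -1.60, adjusted p = 0.000583). Genes past the test lower numbered 4 without 6 h replicate 2 and 1 without L3 replicate 1.

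Of 33 V-ATPase genes, which encode the proton pump of vesicles and apical membranes, 21 were tested, 9 were past the test higher and none lower, and 2 were clear. Of the tested members 20 had a fitted change above 0 and none below it (the other had no count in these libraries), and the median was 1.02, but with library size alone 1 gene was past the test. The clear ones were *Vha100-2* and *Vha36-1*. *Vha100-2* had 188 and 119 CPM at 6 h APF, against 48.6 and 47.6 CPM at L3 (log2 change 1.68, adjusted p = 0.000997). Of 12 glycolytic genes 4 were past the test higher, 2 of them clear, and none was lower, with a median of 0.72. *Ald*, the aldolase gene, had 1112 and 895 CPM at 6 h APF, against 250 and 191 CPM at L3 (log2 change 2.19, SE 0.25, adjusted p = 3.34e-05). *Pgi* had 230 and 267 CPM at 6 h APF, against 75.5 and 79.1 CPM at L3 (log2 change 1.69, adjusted p = 0.000128). Only *Ald* and *Pgi* of the glycolytic list were past the test without 6 h replicate 2. Of 24 genes of oxidative phosphorylation none was past the test, with a median of 0.14, or -0.44 with library size alone.

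Genes for making ribosomes fell. All 54 ribosome biogenesis genes were tested and had a fitted change below 0; 38 were past the test lower and none higher, 15 were clear, and the median log2 change was -1.17. Without 6 h replicate 2, 21 were past the test, and without 6 h replicate 1, 48 were clear. *Nop60B*, the pseudouridine synthase of small nucleolar particles, had 184 and 106 CPM at 6 h APF, against 695 and 494 CPM at L3 (log2 change -2.04, SE 0.38, adjusted p = 0.0011). *CG9253*, which overlaps *del*, had 45.8 and 29.9 CPM at 6 h APF, against 209 and 178 CPM at L3 (log2 change -2.34, SE 0.25, adjusted p = 1.64e-05). *Nop60B* and *CG9253* were both clear lower.

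Of 93 ribosomal protein genes 85 were tested, 1 was past the test, and the median log2 change was 0.41, or -0.17 with library size alone. Of the ribosomal protein genes 7 were past the test higher without 6 h replicate 1. The gene past the test was *RpLP0-like*, a relative of the ribosomal stalk protein that overlaps *Jra*, with 38.5 and 27.9 CPM at 6 h APF, against 97.2 and 95.1 CPM at L3 (log2 change -1.53, adjusted p = 0.000108). Of 73 mitochondrial ribosomal protein genes 72 were tested, 9 were past the test lower and 1 higher, with 4 and 1 clear (median -0.44). The shares lower and clear lower were below those over all genes (14.7 and 9.21%), although 63 genes had a fitted change below 0. The clear lower genes were *mRpS35*, *mRpL15*, *mRpL2* and *mRpS30*, and the gene that rose was *mRpS5*, with 195 and 258 CPM at 6 h APF, against 86.4 and 84.4 CPM at L3 (log2 change 1.40, adjusted p = 0.000343). With library size alone 38 mitochondrial ribosomal protein genes were past the test lower and none higher. Of 11 subunits of RNA polymerases I and III 2 were past the test lower, near the share over all genes (14.7%), and 1 was clear (median -0.72). The clear one was *RpIII128*, with 7.79 and 7.82 CPM at 6 h APF, against 29.3 and 35.6 CPM at L3 (log2 change -2.04, SE 0.23, adjusted p = 2.65e-05). The other, *CG17209*, was below 2-fold without 6 h replicate 2 (-0.95), and without 6 h replicate 1, 5 subunits were past the test lower.

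Of 21 tRNA synthetase genes 5 were past the test lower and none higher, with 3 clear (median -0.36). They were *Aats-met*, *Aats-ala-m* and *Aats-pro*, all clear, and *Aats-ser* and *Aats-thr*, of which the last was below 2-fold without 6 h replicate 2 (-0.96). *Aats-ala-m*, which overlaps *Gen*, had 3.9 and 1.36 CPM at 6 h APF, against 14.8 and 18 CPM at L3 (log2 change -2.53, SE 0.38, adjusted p = 0.000258). With library size alone 10 of the synthetase genes were past the test lower. Of 36 translation factors 31 were tested and 1 was past the test (median 0.10, or -0.49 with library size alone). This was *Ef1alpha100E*, an elongation factor paralogue, with 292 and 182 CPM at 6 h APF, against 41.7 and 44.4 CPM at L3 (log2 change 2.46, adjusted p = 0.000728).

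Of 35 growth signalling genes 34 were tested, 3 were past the test higher and 5 lower (18.1 and 14.7% over all genes), with 2 and 1 clear and a median log2 change of 0.00. Those past the test lower numbered 10 with library size alone and 2 without L3 replicate 1. *dm*, the fly Myc gene and a driver of ribosome production, overlaps *CG12535* and had 265 and 288 CPM at 6 h APF, against 814 and 464 CPM at L3. Its log2 change of -1.21 (adjusted p = 0.00913) was -0.75 and not past the test without L3 replicate 1. *InR*, the insulin receptor, had 82.7 and 120 CPM at 6 h APF, against 291 and 175 CPM at L3, and its log2 change of -1.21 was below 2-fold without 6 h replicate 1 (-0.97) and without L3 replicate 1 (-0.79). *foxo*, which insulin signalling restrains, had 170 and 62.9 CPM at 6 h APF, against 32.2 and 36.5 CPM at L3, and its log2 change of 1.77 was 0.88 without 6 h replicate 1. The amino acid transporter genes *mnd* and *path* were past the test lower and were below 2-fold without 6 h replicate 1 (-0.73 and -0.79). Each of these 5 calls changed when 1 library was left out.

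The clear genes of growth signalling were of other kinds. *ImpL2*, a secreted antagonist of insulin-like peptides, had 263 and 242 CPM at 6 h APF, against 99.5 and 80 CPM at L3 (log2 change 1.49, SE 0.32, adjusted p = 0.00251). *slif*, an amino acid transporter, had 26.4 and 58.5 CPM at 6 h APF, against 4.72 and 4.41 CPM at L3 (log2 change 3.18, SE 0.39, adjusted p = 5.08e-05, and 2.51 without 6 h replicate 2). *hpo*, the kinase of the Hippo pathway, overlaps *Rep* and had 14.4 and 12.6 CPM at 6 h APF, against 53.2 and 57.6 CPM at L3 (log2 change -2.03, SE 0.23, adjusted p = 3.12e-05). *ImpL2* and *slif* were thus clear higher and *hpo* clear lower, but *ImpL2* was below 2-fold with library size alone (log2 change 0.92).

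Division genes fell as well. Of 43 DNA replication genes, all tested, 20 were past the test lower and none higher, 10 were clear, and 42 had a fitted change below 0 (median -0.99). Genes past the test numbered 31 without 6 h replicate 1 and 13 without 6 h replicate 2. *dUTPase*, which keeps uracil out of DNA and overlaps an antisense RNA, had 73.1 and 65.9 CPM at 6 h APF, against 285 and 237 CPM at L3 (log2 change -1.91, SE 0.20, adjusted p = 1.73e-05). *DNA-ligI*, the replicative ligase, overlaps *Upf3* and had 15.6 and 10.2 CPM at 6 h APF, against 42.4 and 44.4 CPM at L3 (log2 change -1.73, adjusted p = 0.000202). Of 46 mitotic genes, all tested, 28 were past the test lower and none higher, 21 were clear, and the median was -1.32. *ald*, the spindle checkpoint kinase Mps1, had 4.35 and 3.06 CPM at 6 h APF, against 19.7 and 20.5 CPM at L3 (log2 change -2.40, SE 0.32, adjusted p = 8.91e-05). *SMC2*, a condensin subunit picked after its values were seen, had 36.2 and 30.6 CPM at 6 h APF, against 166 and 119 CPM at L3 (log2 change -2.10, adjusted p = 9.05e-05). The falls of these 4 genes lay between 3.31-fold and 5.28-fold, and each was clear.

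**Figure D5:**
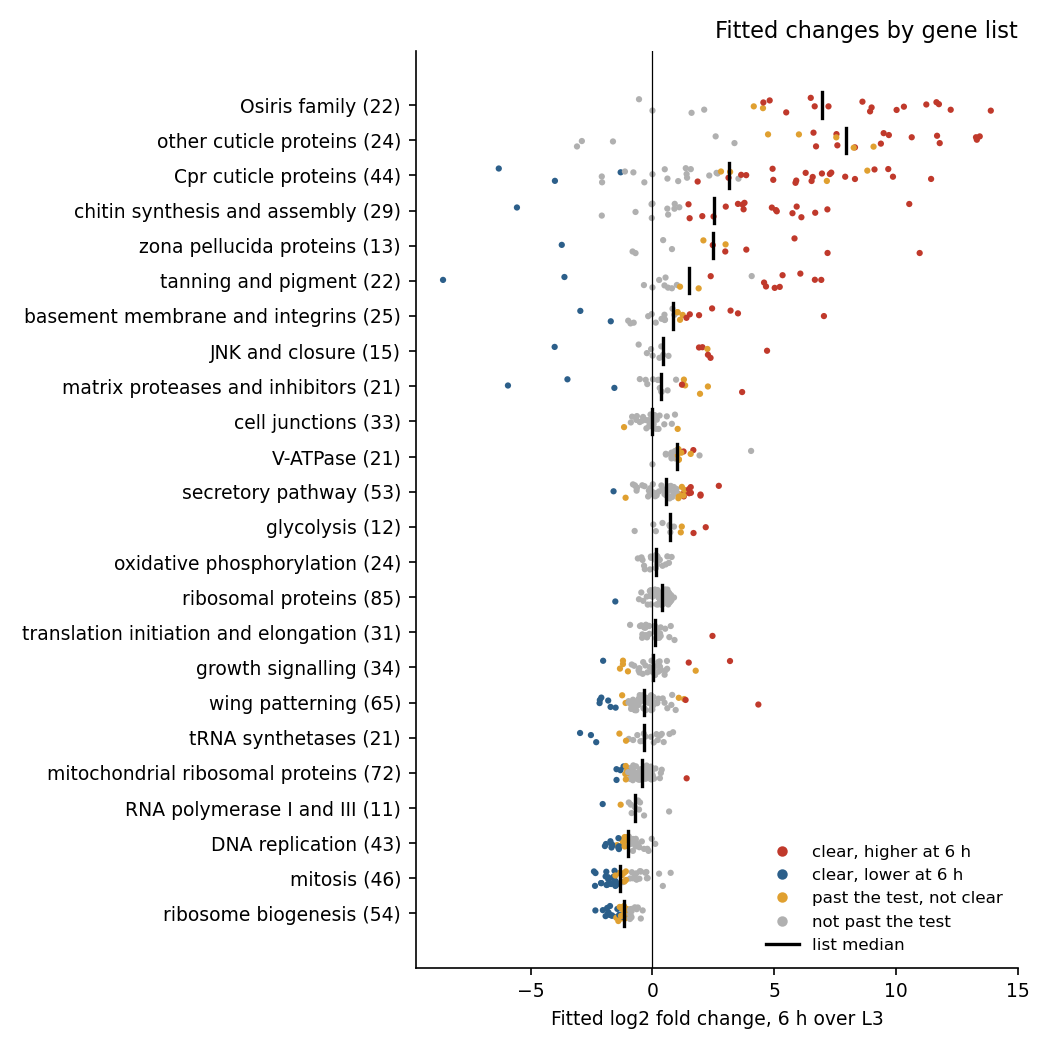
Fitted log2 change (6 h APF over L3) of each tested member of 24 gene lists, with the list median as a bar. Red and blue points are clear higher and lower members and orange points are past the test but not clear. The cuticle, *Osiris* and chitin lists have medians of 2.51 to 7.93 over tested members, or 1.29 to 6.58 without the filter on low counts. Medians are 0.41 for ribosomal proteins, and -1.17, -0.99 and -1.32 for ribosome biogenesis, DNA replication and mitosis.

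Most wing patterning genes did not pass the test. Of 65, all tested, 4 were past the test higher and 8 lower, with 2 and 6 clear and a median log2 change of -0.33. Neither share past the test was above that over all genes tested (18.1% higher and 14.7% lower). Those higher included *Lim1*, *aos* and *Wnt2*. With library size alone 1 was higher and 30 were lower. Leaving out 6 h replicate 1 gave 7 higher and 13 lower, and leaving out L3 replicate 2 gave 13 lower. *wg*, the Wnt ligand of the wing margin, had 64.4 and 60.2 CPM at 6 h APF, against 63.5 and 66.5 CPM at L3 (log2 change -0.06, SE 0.20, adjusted p = 0.836). *ap*, the dorsal selector, had 136 and 112 CPM at 6 h APF, against 200 and 214 CPM at L3 (log2 change -0.74, adjusted p = 0.0123), below 2-fold except with library size alone (-1.33) or with unassigned reads in it (-1.19). *aos*, the secreted EGF receptor antagonist of veins, had 33.7 and 45.2 CPM at 6 h APF, against 16.4 and 13.9 CPM at L3 (log2 change 1.36, adjusted p = 0.00079). With library size alone its log2 change was 0.80. *fz3*, a Wnt receptor that responds to *wg*, had 7.56 and 7.82 CPM at 6 h APF, against 37.4 and 31.5 CPM at L3 (log2 change -2.17, SE 0.29, adjusted p = 9.45e-05).

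Of 16 planar polarity genes *lft* and *mwh* were past the test higher and *fz* and *in* lower, shares below those over all genes (18.1 and 14.7%). The log2 change of *mwh* was below 2-fold without 6 h replicate 2 (0.75). The receptor *fz* had 44.7 and 59.5 CPM at 6 h APF, against 213 and 135 CPM at L3 (log2 change -1.75, adjusted p = 0.000703). The effector *in* had 6.19 and 6.8 CPM at 6 h APF, against 23.9 and 21.7 CPM at L3 (log2 change -1.82, adjusted p = 0.00118). *lft*, which acts on the Fat and Dachsous cadherins, had 339 and 459 CPM at 6 h APF, against 152 and 154 CPM at L3 (log2 change 1.38, adjusted p = 0.00074). Of 13 sensory organ genes 12 were tested, and *pros*, *sens* and *cpo* were past the test higher (18.1% over all genes), with *pros* and *sens* clear. Of the polarity genes none was past the test higher and 7 were lower with library size alone. Of the sensory organ genes 5 were past the test higher without 6 h replicate 1. *pros*, a determinant of sensory organ cell fate that overlaps a noncoding RNA, had 19 CPM in both 6 h libraries, against 1.21 and 0.945 CPM at L3 (log2 change 4.04, SE 0.32, adjusted p = 1.7e-06). *sens*, the proneural zinc finger gene, had 32.5 and 19.4 CPM at 6 h APF, against 5.94 and 4.73 CPM at L3 (log2 change 2.26, adjusted p = 0.000896).

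Markers of tissue other than the wing epithelium also moved, and their part in the results was not tested. All 11 notum genes had a fitted change below 0, and 6 were past the test lower, of which *tup*, *eyg*, *toe*, *B-H1* and *B-H2* were clear, with a summed level of 106 to 134 CPM at 6 h APF, against 233 to 242 CPM at L3. *tup* had 6.19 and 7.14 CPM at 6 h APF, against 30.3 and 29 CPM at L3 (log2 change -2.16, adjusted p = 0.00036), and *eyg* had 8.25 and 6.46 CPM at 6 h APF, against 32.6 and 31.2 CPM at L3 (log2 change -2.10, adjusted p = 0.000142). These genes are also patterning genes of the disc, and *tup* stands in both lists. Of 8 peripodial genes 1 was past the test higher, *upd3*, which was not past it without 6 h replicate 1 (log2 change 1.92) or in a fit of the 4 libraries alone. The 8 genes summed to 405 to 432 CPM at 6 h APF, against at most 415 CPM at L3. Of 13 genes of adult muscle precursors 7 were past the test higher and 1 lower, with a summed level of 873 to 907 CPM at 6 h APF, against 433 to 478 CPM at L3. Of these 4 were past the test higher without 6 h replicate 1, and 4 without L3 replicate 1. *twi*, which defines these precursors, overlaps *CG9897* and was picked after its values were seen, had 18.1 and 18 CPM at 6 h APF, against 18.2 and 16.4 CPM at L3. Most of the summed rise came from *how*, an RNA-binding protein also expressed in other cells, with 394 and 442 CPM at 6 h APF, against 101 CPM in both L3 libraries.

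Fat body genes rose and were uneven between the 6 h pools. Of 12 genes 11 were tested, 10 were past the test higher and 1 lower, 9 and 1 were clear, and the summed level was 240 and 890 CPM in 6 h replicates 1 and 2, against 39 and 29.9 CPM at L3. *Fbp1*, the receptor for storage proteins, had 63.3 and 396 CPM at 6 h APF, against 0.969 and 0.63 CPM at L3, a ratio of 263 (95% counting interval 143 to 548). The storage protein gene *Lsp1gamma* had 13.3 and 102 CPM at 6 h APF, against 1.7 and 1.26 CPM at L3 (log2 change 5.16, and 3.07 without 6 h replicate 2). Of 13 hemocyte genes 11 were tested, 5 were past the test higher and 4 lower (4 and 3 clear), and the summed level was 129 to 140 CPM at 6 h APF, against 95.1 to 101 CPM at L3. Without L3 replicate 1, 3 hemocyte genes were past the test higher. Among hemocyte genes, *crq*, a scavenger receptor that overlaps *ex*, had 69.2 and 75.8 CPM at 6 h APF, against 27.3 and 25.8 CPM at L3 (log2 change 1.44, adjusted p = 0.000138). The log2 change of *crq* was 0.87 with library size alone. *Hml* had 5.96 and 2.38 CPM at 6 h APF, against 13 and 12 CPM at L3, and *proPO-A1*, a prophenoloxidase of crystal cells, had no count at 6 h APF, against 14.1 and 8.82 CPM at L3, at least 11.2-fold lower.

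Contractile muscle genes summed to 124 to 216 CPM at 6 h APF, against 67.4 to 86.4 CPM at L3, with 2 of 14 tested genes, *bt* and *Act87E*, past the test higher. Of the 14, 11 had a fitted change above 0, with a median of 1.11. *Act87E* was not past the test without 6 h replicate 1 (log2 change 0.95), without L3 replicate 1 (1.39) or without L3 replicate 2 (1.32). *Mhc*, the muscle myosin heavy chain, was picked after its values were seen. It had 0.458 and 0.68 CPM at 6 h APF, against 0.485 and 0 CPM at L3. The 13 gut genes summed to at most 1.02 CPM in any of the 4 libraries and the 20 glue genes to at most 6.8 CPM, and none of them passed the filter. The 9 genes of neurons and glia summed to 49 to 59.5 CPM at 6 h APF, against 33.4 to 50.3 CPM at L3, with 1 past the test, *nrv3*. The tracheal list summed to 897 to 1152 CPM at 6 h APF, against 284 to 338 CPM at L3, and 2 of its 6 genes, *uif* and *bnl*, were past the test higher. *uif*, a transmembrane protein of the apical membrane, had 966 and 752 CPM at 6 h APF, against 220 and 170 CPM at L3. *bnl*, the FGF ligand of *btl*, was not past the test without 6 h replicate 2 (log2 change 1.08) or without L3 replicate 2 (1.15). *btl*, the FGF receptor of tracheal cells, was likewise picked after its values were seen. It had 4.13 and 3.4 CPM at 6 h APF, against 6.3 and 7.24 CPM at L3. The male-specific RNA *roX1*, which overlaps *ec*, was picked in the same way. It had 57.1 and 25.8 CPM at 6 h APF, against 210 and 8.82 CPM at L3. These levels set the L3 libraries apart from each other more than the stages.

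Of 6 small heat shock genes tested, of 8 in the files, *Hsp27*, *Hsp23* and *Hsp26* were past the test lower, and 2 had a fitted change above 0. *Hsp27* had 576 and 820 CPM at 6 h APF, against 7916 and 6242 CPM at L3, 10.2-fold lower (log2 change -3.34, SE 0.39, adjusted p = 3.99e-05), and overlaps a noncoding gene. *Hsp23* had 879 and 825 CPM at 6 h APF, against 2570 and 2862 CPM at L3 (log2 change -1.67, adjusted p = 0.000583). *Hsp83*, the Hsp90 chaperone of steroid receptors, overlaps *CG14966* and had 262 and 305 CPM at 6 h APF, against 2063 and 2249 CPM at L3, 7.60-fold lower (log2 change -2.93, SE 0.21, adjusted p = 9.93e-07). The stress-inducible *Hsp68* was also lower, with 16 and 21.8 CPM at 6 h APF, against 138 and 333 CPM at L3 (log2 change -3.64, adjusted p = 4.63e-05, and -2.88 without L3 replicate 2). *Hsp68* overlaps *CG6000*. In *Hsp68* the L3 libraries differed from each other as well as from both 6 h libraries. Of the 14 genes of the wider inducible list 9 were tested, *Hsp83*, *Hsp68*, *Hsp70Bc* and *DnaJ-1* were past the test lower, and 4 had a fitted change above 0. *Hr38*, an orphan receptor that overlaps *CG2617*, was past the test higher on 6 h replicate 1 alone, with 8.71 and 0 CPM at 6 h APF, against 0 and 0.315 CPM at L3, and its log2 change was -2.14 without that library. *DnaJ-1* was not past the test without L3 replicate 2 (-0.89).

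Of 12 cell death genes *rpr*, *skl* and *th* were past the test higher (18.1% over all genes), none of them clear. *Dcp-1* was clear lower (9.21% over all genes). *rpr*, the death inducer, had 14 and 87 CPM at 6 h APF, against 9.33 and 7.24 CPM at L3, and its log2 change of 2.54 was 0.72 and not past the test without 6 h replicate 2. The caspase *Dcp-1* overlaps *pita* and had 33.9 and 34 CPM at 6 h APF, against 122 and 86.9 CPM at L3 (log2 change -1.62, adjusted p = 0.000489). *th*, the caspase inhibitor, overlaps an antisense RNA and had 462 and 537 CPM at 6 h APF, against 230 and 251 CPM at L3 (log2 change 1.06, adjusted p = 0.00194), and was below 2-fold without 6 h replicate 2 (0.94). Without that library none of the 12 death genes was past the test higher. Of 13 autophagy genes 12 were tested and 1 was past the test higher, *Atg1*, the kinase that starts autophagy, with 198 and 116 CPM at 6 h APF, against 77.8 and 49.5 CPM at L3. Its log2 change of 1.29 was 0.84 and not past the test without 6 h replicate 1.

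Ranked over all genes tested by the smallest of the 4 differences, the largest rises were *Osi6*, *Osi7*, *CG17127*, *CG2150* and *CG12164*. *CG2150* had 21590 and 5997 CPM at 6 h APF, against 1.09 and 2.52 CPM at L3 (log2 change 13.07, SE 1.12, adjusted p = 3.34e-06). *CG12164* had 27060 and 7226 CPM at 6 h APF, against 3.51 and 2.84 CPM at L3 (log2 change 12.35, SE 0.98, adjusted p = 1.79e-06). *CG17127* had 7062 and 2352 CPM at 6 h APF, against 0.606 and 0 CPM at L3, a ratio of 10800 (95% counting interval 4610 to 33100). These 3 genes known by number were higher in 6 h replicate 1, as *TwdlT* was. Without 6 h replicate 1 the log2 changes were 11.91 for *CG2150*, 11.09 for *CG12164* and 12.33 for *CG17127*. The largest falls by this rank were *CG15353*, *proPO45*, *Idgf4*, *CG13044* and *CG11275*. *CG11275* had 0.688 and 2.38 CPM at 6 h APF, against 87.9 and 77.2 CPM at L3, and its L3 level was 60.3 times the 6 h level (95% counting interval 32.8 to 126). *CG13044*, which overlaps an antisense RNA, had 0.229 and 0.34 CPM at 6 h APF, against 32.6 and 22.7 CPM at L3, a ratio of 101 (L3 over 6 h APF, 95% counting interval 27.9 to 833).

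The genes with the widest gap between the 6 h pools included members of the cuticle lists. In replicate 1 the highest were *CG13041* (369 and 0.34 CPM at 6 h APF), *CG13060* (80.2 and 0 CPM) and *Cpr65Ea* (100 and 0.34 CPM), with at most 5.57 CPM in any L3 library. *CG13041* overlaps an antisense RNA, and its log2 change of 5.27 was -3.68 without 6 h replicate 1. In replicate 2 the highest were *Osi12* (6.88 and 149 CPM), *Cpr76Bc* (4.13 and 33.7 CPM) and *Lsp1gamma* (13.3 and 102 CPM). Of these 6 genes only *Lsp1gamma* was clear in both replicates.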

How the data were processed

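The authors aligned stranded mRNA reads to dm3 with TopHat2 2.1.0, processed them with SAMtools 1.2 and counted them on genes with HTSeq 0.6.1. The deposited counts are whole reads for each gene, not normalised. The deposited RPKM values, made by the authors with edgeR from the same counts, were not tested, and 2 of their columns match no sample and were not used. The strand setting of the counting is not given in the sources used here, so overlaps on the opposite strand are named for genes whose CPM values are printed. Genes named without CPM values can overlap others too, as *Act87E*, *Aats-pro* and *Aats-ser* do. Reads that fell on no single gene made up 52.8 and 61.7% of the records of the 6 h libraries and 66.4 and 56% of those of the L3 libraries, and were left out.

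The tools were edgeR 4.0.16, with limma 3.58.1, and DESeq2 1.42.0, run in R 4.3.3. Genes whose log2 CPM exceeded 2 in any of the 12 libraries were tested in one edgeR quasi-likelihood model with a coefficient per timepoint, TMM factors and Benjamini-Hochberg adjustment over the 8469 genes tested. Past the test means an adjusted p under 0.05 and a 2-fold change, and clear adds at least 2-fold in all 4 ratios between libraries (prior count 2). Every adjusted p printed comes from this model. Lists have no test of their own and are given as counts and medians. Where a stage had no count, the fold is a bound against 3 counts per library, and with 10 counts or fewer in a stage the ratio has a 95% exact counting interval. The members and lists were chosen with earlier results of these data known. Genes named are, per list, up to 2 with the largest clear rise and up to 2 with the largest clear fall, ranked by the smallest of the 4 differences, a set of landmark genes whether moved or not, the 5 largest rises and falls over all genes, the 3 genes with the widest gap each way between the 6 h replicates above a log2 CPM of 5, and members of counts of 5 or fewer; any other gene is said to be picked after its values were seen. Of 15240 symbols 15013 matched a FlyBase identifier and 15009 were located in BDGP6. Overlaps on the opposite strand were read from the exons of BDGP6, whereas the reads were counted on dm3. Steps were tested on simulated data. Alternatives were library size alone, DESeq2's size factors, library sizes with unassigned reads, no filter and a stricter filter, a prior count of 0.5, DESeq2's Wald test, the 4 libraries alone, a replicate block and leaving out each library. Some genes and 1 list are not reported here.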

Additional observations from a re-analysis of the deposited data

How the results depend on the processing

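The numbers of genes past the test were 1532 higher and 1247 lower, with 1133 and 780 clear. With library size alone 2582 genes were lower and 1807 were clear lower, the share of higher genes among those past the test was 29.6% (55.1% with TMM factors), and 1592 clear genes were shared. With unassigned reads in the library size 1016 were higher and 1957 lower (34.2% higher), and 740 were clear higher. DESeq2's size factors, DESeq2's Wald test, both filters, the prior count and the 4 libraries alone kept each count within 1.5 times. In the 4 libraries alone 17 named genes lost their call. The differences between replicates 1 and 2 at 6 h APF and at L3 had a correlation of -0.015 over tested genes. With 1 difference per stage, this cannot exclude a batch shared by replicate number. With a replicate block 1523 genes were higher and 1275 lower, sharing 2750 genes with the fit without the block. Leaving out each library gave 1276 to 1510 genes higher, 1012 to 1409 lower, 1125 to 1405 clear higher and 798 to 1253 clear lower, the clear counts then resting on fewer ratios. Of 178 named genes, some lost their call without 6 h replicate 1, and *CG13060* and *Cpr65Ea*, past the test with all libraries, no longer passed the filter. Without it *CG13041* and *Hr38* turned, at log2 changes of -3.68 and -2.14. These were the lowest of their values with 1 library left out, whose highest were 6.24 and 7.49. Calls were also lost without 6 h replicate 2, L3 replicate 1 or L3 replicate 2, in part of the same genes. With library size alone 26 named genes, all higher at 6 h APF, lost their call. Among them were *ImpL2*, *mys*, *lft*, *mRpS5*, *crq*, *aos*, *Eip74EF*, *Spn42Da* and *Vha36-1*. Under the same scaling *br*, *nub*, *zip*, *ap* and *pio* gained a call lower at 6 h APF. Calls of genes near the floor are limited by counting. With 2 pools per stage, the p-values rest on a spread shared with the other timepoints.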

Other observations

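Further gene families, set by symbol and able to share genes with the lists, were tallied after the values were seen, and are given as descriptions. Of 27 glutathione S-transferases tested 4 were past the test higher and 4 lower (18.1 and 14.7% over all genes). Of 10 odorant binding proteins 7 were higher and 2 lower. Rab GTPases had 4 of 21 higher, proteasome genes 2 of 21, and Beat and Dpr genes 3 of 10, with none lower. Of 34 tetraspanins, membrane organisers, 22 were tested, 10 were past the test higher and none lower, and 9 were clear. *Tsp42Ea* had 464 and 411 CPM at 6 h APF, against 72.8 and 74.3 CPM at L3 (log2 change 2.57, edgeR adjusted p = 1.61e-06). *Tsp66E*, which overlaps *mfr*, had 303 and 199 CPM at 6 h APF, against 33.9 and 34.3 CPM at L3. Of 8 cadherins 3 were past the test higher, all clear. *Cad96Ca*, a receptor kinase with cadherin repeats, had 354 and 340 CPM at 6 h APF, against 38 and 37.8 CPM at L3 (log2 change 3.19, SE 0.21, adjusted p = 3.54e-07). *Cad99C*, a cadherin of microvilli in the ovary that overlaps *dgt1*, had 306 and 219 CPM at 6 h APF, against 95.2 and 101 CPM at L3.

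Of 82 cytochrome P450 genes 31 were tested, 13 were past the test higher and 1 lower, and 12 and 1 were clear (median 1.97). The clear higher genes of this family include *Cyp18a1*, already given with the ecdysone response. *Cyp301a1*, an enzyme of cuticle formation that overlaps *Ak6*, had 202 and 462 CPM at 6 h APF, against 5.94 and 3.78 CPM at L3. *ect*, a secreted protein gene outside all lists, had 2785 and 9244 CPM at 6 h APF, against 4.24 and 2.84 CPM at L3 (log2 change 10.66, SE 0.70, adjusted p = 4.31e-07).

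Of 16 nuclear pore genes, all tested, 14 were past the test lower and none higher, and 11 were clear (median -1.63). *Nup133* had 13.1 and 11.2 CPM at 6 h APF, against 56.2 and 51.7 CPM at L3 (log2 change -2.14, adjusted p = 3.72e-06). Chromatin protein genes picked by their level fell as well. *Df31* had 828 and 1132 CPM at 6 h APF, against 3306 and 2926 CPM at L3 (log2 change -1.67, adjusted p = 0.00018). *HmgD* had 591 and 805 CPM at 6 h APF, against 2000 and 1776 CPM at L3 (log2 change -1.44, adjusted p = 0.000581). *His2Av*, the histone variant, had 222 and 243 CPM at 6 h APF, against 762 and 635 CPM at L3 (log2 change -1.59, adjusted p = 0.000108). Each of the genes named here was clear in both replicates.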
